A study of Homo sapiens with 6 samples.

Results

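The carbonic anhydrases described here are CA1, CA2, CA4, CA5B, CA8, CA9, CA11, CA12 and CA13, which are 9 of the 17563 genes with values in the deposited expression table. They were found by Entrez gene identifier, and the choice of these 9 from the 15 family genes was selected from values of this same table, with the comparison of the groups already known. Their changes between groups are therefore given as a description, with the p-values of a fit over all genes, and not as independent evidence. RNA was sequenced from Ls174t cells, a mucin-secreting human colorectal adenocarcinoma line, in a vector control line (3 dishes) and a stable line that overexpresses the ubiquitin ligase RNF186 (3 dishes). All dishes were untreated and were harvested after 48 h of culture in DMEM, to which serum (fetal bovine) and antibiotics (penicillin and streptomycin) had been added. Each group is 1 stable line divided over dishes, so an SD or a p-value covers the spread between dishes of 1 line and not between lines. The promoter that drives RNF186 and the number of clones behind each line are not stated in the labels.

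Carbonic anhydrases are zinc enzymes that convert carbon dioxide and water to bicarbonate and a proton, and back. CA1, CA2 and CA13 work in the cytosol, CA5B in mitochondria, and CA4 on the outer face of the plasma membrane through a lipid anchor. CA9 and CA12 span the plasma membrane with the catalytic domain outside the cell, and both are known as genes induced by hypoxia-inducible factor (HIF) in tumours. CA8 and CA11 are related proteins without catalytic activity. In normal colon, CA1, CA2 and CA4 are known as genes of mature surface colonocytes.

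The promoters of the membrane-spanning pair are shown because the fall of the family came almost wholly from CA9, while CA12 stayed near its vector level. RefSeq (GRCh38.p14) gave promoter sequence for CA9, CA12 and CA5B among the members. The 250 bases before each start are printed 5′ to 3′ on the gene's strand, at chr9:35673678-35673927 (plus strand) for CA9 and chr15:63381847-63382096 (minus strand) for CA12. Capitals mark matches, searched on both strands, to the hypoxia response element core ACGTG, which reads CACGT on the opposite strand, and to the AP-1 site TGANTCA, which matches itself on both strands. The matches in the CA9 window do not overlap, and the CA12 window has none.
CA9: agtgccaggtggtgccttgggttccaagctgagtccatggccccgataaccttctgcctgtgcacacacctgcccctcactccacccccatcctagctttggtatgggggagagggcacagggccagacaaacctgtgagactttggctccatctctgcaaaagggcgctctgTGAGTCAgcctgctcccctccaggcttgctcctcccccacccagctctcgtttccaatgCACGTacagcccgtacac
CA12: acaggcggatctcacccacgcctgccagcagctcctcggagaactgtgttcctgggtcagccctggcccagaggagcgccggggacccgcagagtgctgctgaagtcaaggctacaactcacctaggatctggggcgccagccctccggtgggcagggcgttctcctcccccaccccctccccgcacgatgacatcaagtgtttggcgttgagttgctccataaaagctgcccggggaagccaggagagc

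The CA9 window held the hypoxia core at bases -18 to -14 from the start and the AP-1 letters at bases -77 to -71. The CA12 and CA5B windows held neither. Of 35116 promoter windows of the same length, 18.5% held the hypoxia core and 6.57% the AP-1 letters. Of the 29 windows of genes on the list of HIF targets other than carbonic anhydrases, 17 (58.6%) held the hypoxia core and 1 (3.45%) the AP-1 letters. A match is a string of letters and not a measured site, and a window without one says nothing about the factor.

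RNF186 was 0.69, 0.71 and 0.61 FPKM (fragments mapped to a gene, scaled to its length and to all mapped fragments) in the vector libraries and 452, 577 and 485 FPKM in the RNF186 libraries, as labelled. Summed FPKM ran from 387478 to 412391 per library, and the read depth is unknown. All 10 colorectal epithelium markers reached a mean of 1 FPKM, with KRT8 at 3651 FPKM in vector and 2751 in RNF186 cells, and summed to 6532 to 7106 FPKM in vector and 5292 to 5734 in RNF186 libraries. KRT8, KRT18, LGALS4, CDH17 and VIL1 lay lower in every RNF186 library than in any vector library. CEACAM5 (mean 51 against 128 FPKM), EPCAM (512 against 592) and CDX2 (11.2 against 13.1) lay higher without overlap, and MUC2 and KRT20 overlapped. The extraction text in the labels speaks of retinas, but the 8 retina markers with values summed to only 1.63 to 2.25 FPKM per library. Fibroblast markers (6 with values) summed to 0.07 to 0.14 FPKM, endothelial markers (5) to 0.39 to 0.51 and erythroid markers (4) to 0.3 to 0.55, with HBB at 0 throughout. The 7 leukocyte markers summed to 19.2 to 20.3 FPKM in vector and 22.3 to 23.7 in RNF186 cells, most of it LYZ (14.7 to 19.4). CD14 went the other way, from 1.79 to 2.16 FPKM in vector to 1.09 to 1.42 in RNF186 cells. CD3E and ITGAM lay at or under 0.07 FPKM, PTPRC between 1.81 and 2.34, and the part of these markers in any result was not tested.

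By level per gene length, CA12 and CA9 stood far above the other members in vector cells. CA12 ran from 41.0 to 42.2 FPKM and CA9 from 28.7 to 32.5. CA2 (4.58 to 5.07) and CA8 (4.24 to 4.50) followed without overlapping each other. CA5B (2.09 to 2.50) and CA13 (2.0 to 2.33) overlapped, CA11 lay between 0.85 and 1.13, and CA1 and CA4 did not exceed 0.06. In RNF186 cells CA12 remained the highest, but CA8 (4.93 to 5.23) came next, above CA9 (3.74 to 4.39) and CA2 (3.58 to 4.22), which overlapped.

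**Figure D1:**
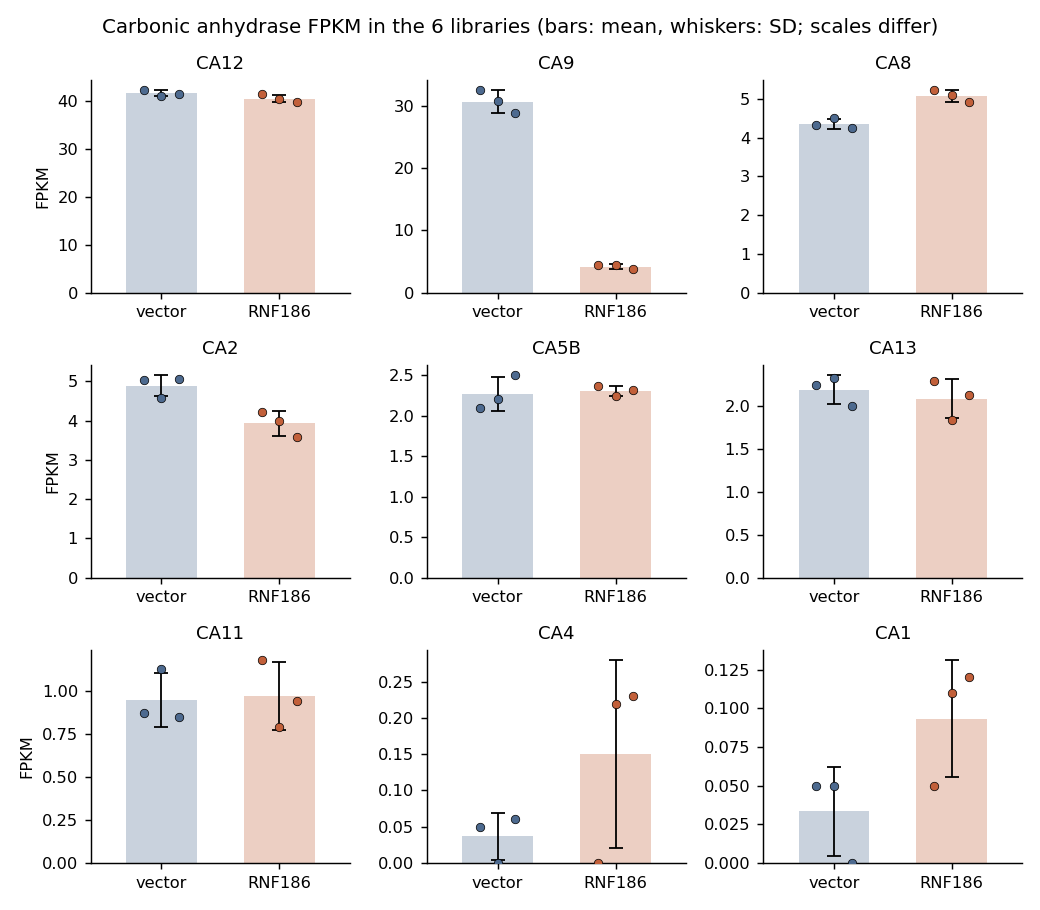
FPKM of each carbonic anhydrase in the 3 vector and 3 RNF186 libraries (points), with the group mean (bar) and SD (whisker), and a separate vertical scale from 0 in each panel. CA9 dropped in all 3 RNF186 libraries, CA2 lay lower and CA8 higher without overlap, and the groups of the other 6 genes overlapped or met.

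CA9 (Entrez 768), the hypoxia-induced transmembrane enzyme, was the member that changed most. Its FPKM was 32.49, 30.67 and 28.74 in vector cells and 4.39, 4.38 and 3.74 in RNF186 cells. The lowest vector library was far above the highest RNF186 library. The mean fell from 30.6 ± 1.88 (SD, n = 3) to 4.17 ± 0.372, a ratio of 7.35. The log2 change was -2.61 (SE 0.071, 95% interval -2.77 to -2.45, limma, adjusted p = 6.09e-09), where a change is the difference of mean log2(FPKM + 1). On this scale, only 6 of the 11632 tested genes had a lower log2 change. The rank depends on the 1 that is added. With 0.1 added in its place, COXFA4L2 (-3.32) and LCN15 (-3.05), which otherwise changed less, lay below CA9 (-2.85).

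CA12 (Entrez 771), the other transmembrane enzyme, was 42.22, 41.02 and 41.41 FPKM in vector cells and 41.28, 40.23 and 39.74 in RNF186 cells. The groups overlapped, and the mean was 41.6 ± 0.612 against 40.4 ± 0.787 (SD, n = 3). Its log2 change of -0.04 had a 95% interval from -0.14 to 0.06 (limma, adjusted p = 0.51), so a fall of the size seen in CA9 lies far outside that interval. A correction for transcript length and GC content, chosen after seeing the data, gave CA12 a change of -0.09 that was called (limma, adjusted p = 0.0427). The ratio of CA9 to CA12 FPKM was 0.77, 0.748 and 0.694 in the vector libraries. It was 0.106, 0.109 and 0.0941 in the RNF186 libraries, a ratio that does not depend on the scaling of a library.

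Of the cytosolic enzymes, CA2 (Entrez 760), the fast and widely expressed form, was 5.02, 4.58 and 5.07 FPKM in vector cells. In RNF186 cells it was 4.22, 3.98 and 3.58, and the groups did not overlap. CA2 fell from 4.89 ± 0.27 to 3.93 ± 0.323 (SD, n = 3), a log2 change of -0.26 (SE 0.075, 95% interval -0.43 to -0.09, limma, adjusted p = 0.022). Dropping vector dish 1, vector dish 3 or RNF186 dish 3 ended the call, each time with the same direction (limma, adjusted p = 0.0697 to 0.0896).

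CA13 (Entrez 377677), a cytosolic form known from several epithelia, was 2.24, 2.33 and 2.0 FPKM against 2.29, 1.84 and 2.13. The groups overlapped, with a log2 change of -0.05 (95% interval -0.24 to 0.14, limma, adjusted p = 0.682). CA1 (Entrez 759), the cytosolic form abundant in red cells and colonocytes, was listed at 0.05, 0.05 and 0 FPKM in vector cells and at 0.05, 0.11 and 0.12 in RNF186 cells. CA4 (Entrez 762), the lipid-anchored form, was listed at 0.05, 0 and 0.06 against 0, 0.22 and 0.23. Both lay near the bottom of what the table resolves, with groups that met or overlapped. Without the filter on low values neither was called (limma, adjusted p = 0.14 for CA1 and 0.243 for CA4). CA4 overlaps USP32 in RefSeq, and no source used here says whether reads were counted by strand.

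CA5B (Entrez 11238), the mitochondrial form, was 2.09, 2.2 and 2.5 FPKM in vector cells and 2.36, 2.24 and 2.31 in RNF186 cells. All RNF186 values lay within the vector range, and the log2 change was 0.02 (95% interval -0.16 to 0.19, limma, adjusted p = 0.862). CA5B has a transcribed pseudogene, CA5BP1, and how reads of similar sequence were divided is not given, so its level is uncertain.

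Of the members without catalytic activity, CA8 (Entrez 767), which is known to bind the inositol trisphosphate receptor, was 4.33, 4.50 and 4.24 FPKM in vector cells. In RNF186 cells it was 5.23, 5.10 and 4.93, and every RNF186 value exceeded every vector value. CA8 rose from 4.36 ± 0.132 to 5.09 ± 0.15 (SD, n = 3), a log2 change of 0.18 (SE 0.064, 95% interval 0.04 to 0.33, limma, adjusted p = 0.044). This call ended when any 1 library was left out (limma, adjusted p = 0.0503 to 0.136). It ended too with no filter on low values (limma, adjusted p = 0.0678), after quantile normalization (0.152) and after the length and GC correction (0.193). Of the 18 settings other than the main fit that tested CA8, 7 called it. CA11 (Entrez 770), the other such member, was 0.87, 1.13 and 0.85 FPKM against 1.18, 0.79 and 0.94. Its groups overlapped, and without the filter its log2 change was 0.01 (limma, adjusted p = 0.937).

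Of the 6 family genes outside the 9, CA3, CA5A, CA6, CA7 and CA14 had values, and all were under 0.5 FPKM in each library. CA14, another transmembrane form, was 0.44, 0.45 and 0.38 FPKM in vector cells and 0.21, 0.18 and 0.21 in RNF186 cells. Without the filter it was the only one of these 5 to be called (log2 change -0.25, limma, adjusted p = 0.0026), where 25.6% of 17087 genes were called. CA6, the secreted salivary form, was listed at 0 in the vector libraries and at 0.06, 0.20 and 0.07 FPKM in the RNF186 libraries. The values of CA3, CA5A and CA7 overlapped or met between groups, at 0 to 0.47 FPKM. CA10 was not analysed here.

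Summed over the 9 members, FPKM was 89.4, 86.5 and 84.9 in the vector libraries and 61.0, 58.9 and 57.7 in the RNF186 libraries. The mean sum went from 86.9 ± 2.27 to 59.2 ± 1.66 (SD, n = 3), a difference of 27.7 FPKM, of which CA9 gave 26.5 FPKM, or 95.5%. The other 8 members together were 56.9, 55.8 and 56.1 FPKM against 56.6, 54.5 and 54.0, and these sums overlapped. CA9 made up 33.9 to 36.4% of the sum in vector cells and 6.48 to 7.44% in RNF186 cells. CA12 made up 47.2 to 48.8% and then 67.7 to 68.8%, although its own level overlapped between groups. The share of CA8 went from 4.85 to 5.2% up to 8.54 to 8.66%.

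**Figure D2:**
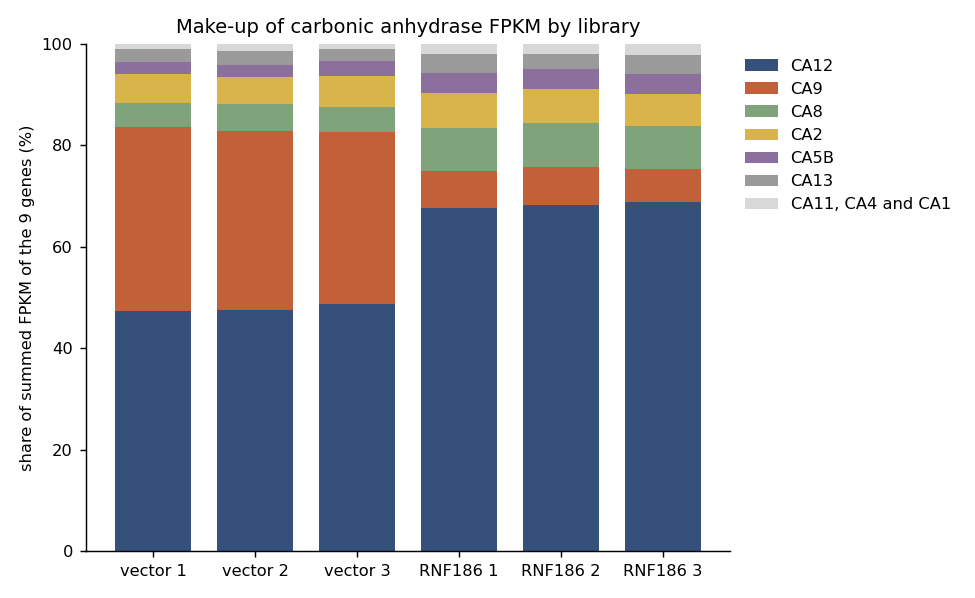
Share of the summed FPKM of the 9 carbonic anhydrases taken by each gene (vertical axis, percent) in each of the 6 libraries. CA9 took 33.9 to 36.4% in the vector libraries and 6.48 to 7.44% in the RNF186 libraries, and CA12 took the largest share in all 6.

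In the fit over all genes, 6 of the 9 members reached the required mean of 1 FPKM, and CA1, CA4 and CA11 did not. Of these 6, CA9 and CA2 were called lower, CA8 was called higher, and CA12, CA13 and CA5B were not called. Over all 11632 tested genes 38.8% were called, 18.9% lower and 19.9% higher. The share of all calls that were higher was 51.3%, 63.1% after TPM rescaling, which gives every library the same sum, and 42.6% after the length and GC correction. The groups did not overlap for the same 3 of 6 members, and for 49.5% of all tested genes. The median log2 change was -0.04 over the tested members and -0.0046 over all tested genes, and the median size over all genes was 0.14. Since the members were selected with this contrast known, nothing is read from these counts. With any 1 library left out, 1 or 2 members were called, and CA9 was called each time with a log2 change between -2.66 and -2.55.

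**Figure D3:**
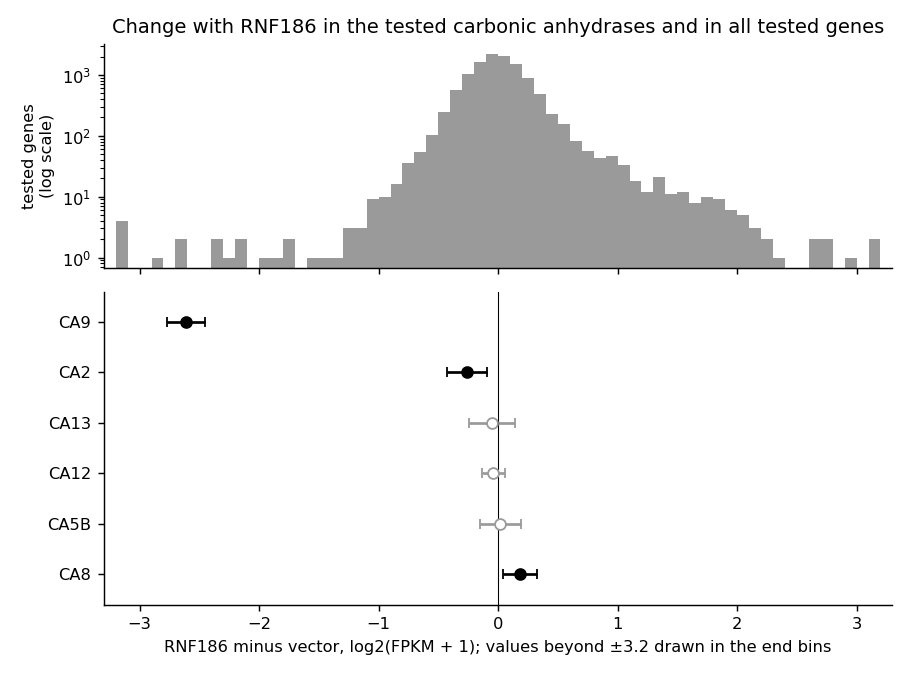
Lower panel, log2 change with RNF186 and its 95% interval for the 6 tested carbonic anhydrases (filled, adjusted p under 0.05), and upper panel, the log2 changes of all 11632 tested genes with a logarithmic count axis. CA9 at -2.61 lies in the far lower tail, and the other 5 lie between -0.26 and 0.18.

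The protein coding genes next to CA9 in RefSeq did not share the size of its fall. ARHGEF39, a guanine nucleotide exchange factor, went from 8.17 to 6.97 FPKM (log2 change -0.20, limma, adjusted p = 0.0228). TPM2, a tropomyosin, went from 31.7 to 27.3 FPKM (-0.21, limma, adjusted p = 0.0195). CCDC107 (0.02, limma, adjusted p = 0.84) and the talin gene TLN1 (-0.12, 0.106) were not called. These neighbours, and the gene lists that follow, were chosen with results of these data known.

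HIF is the transcription factor known to switch on CA9 and CA12 under low oxygen. More of the other listed HIF targets rose than fell, and whether HIF has a part in the fall of CA9 was not tested. Of 29 tested targets on the list, 18 rose, 3 fell and 8 were not called, with a median log2 change of 0.20, where 19.9% of all tested genes rose and 18.9% fell. BNIP3, a mitophagy receptor, was 24.5, 24.7 and 24.9 FPKM against 48.5, 41.8 and 44.7 (log2 change 0.84, limma, adjusted p = 3.65e-06). Its relative BNIP3L (0.77, limma, adjusted p = 4.62e-06) and the collagen-modifying enzyme PLOD2 (0.73, 1.15e-05) rose as well. COXFA4L2, formerly NDUFA4L2, a mitochondrial protein, fell furthest among the tested targets. It was 5.96, 6.54 and 6.42 FPKM in vector and 0.57, 0.41 and 0.67 in RNF186 cells (log2 change -2.24, limma, adjusted p = 5.22e-08). Its RNF186 values lay under the required mean of 1 FPKM, so it passed the filter only through its vector level. The other falls were PGK1 (-0.28) and ENO1 (-0.20), both enzymes of glycolysis.

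The RNA of genes that carry and restrain HIF shifted little, and HIF protein was not measured. EGLN1 is on this list and also on the list of HIF targets. HIF1A, the inducible subunit, had a mean of 67.7 FPKM in vector and 73.2 in RNF186 cells (log2 change 0.11, limma, adjusted p = 0.158), and EPAS1, its paralogue, 4.75 and 5.08 (0.08, 0.366). Of 8 tested genes of this list 3 were called higher, with a list median of 0.13, a share of calls near the 38.8% of all tested genes. They were the asparagine hydroxylase HIF1AN (0.20, limma, adjusted p = 0.0192), the prolyl hydroxylase EGLN1 (0.15, 0.0351) and the ubiquitin ligase subunit VHL (0.15, 0.0406). Dropping vector dish 1 or RNF186 dish 3 ended the HIF1AN call (limma, adjusted p = 0.0715 to 0.0845). EGLN1 and VHL each lost theirs without any 1 library other than RNF186 replicate 2 (limma, adjusted p = 0.0648 to 0.157).

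Carriers that move the bicarbonate and protons made by carbonic anhydrases shifted modestly. Of 15 bicarbonate transporters 5 were tested, 2 fell and 3 were not called, with a median log2 change of 0.04, where 38.8% of all tested genes were called. With TPM rescaling 1 was called higher and 1 lower, since SLC26A6 lost its call (limma, adjusted p = 0.0525). With no filter on low values 1 of 15 was called, and it was higher, while SLC4A2 (limma, adjusted p = 0.0652) and SLC26A6 (0.0791) lost their calls. SLC4A2, a chloride-bicarbonate exchanger, was 52.8, 51.5 and 47.3 FPKM in vector and 37, 48 and 37.5 in RNF186 cells (log2 change -0.31, limma, adjusted p = 0.0228), so RNF186 replicate 2 reached into the vector range. SLC26A6, an anion exchanger, was 11.6, 12 and 12.4 against 8.83, 11.5 and 8.91 FPKM (-0.28, limma, adjusted p = 0.0328). The SLC4A2 call ended when any library but vector dish 3 and RNF186 dish 2 was dropped (limma, adjusted p = 0.0748 to 0.0864), and the SLC26A6 call when any but RNF186 dish 2 was (0.0608 to 0.118). The bicarbonate channel CFTR (0.20, limma, adjusted p = 0.0534) was not called.

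Of 17 proton and lactate exporters 10 were tested, 1 rose, 2 fell and 7 were not called, with a median log2 change of -0.02. This share of called genes is under the 38.8% of all tested genes. The sodium-proton exchanger SLC9A2 was 11, 11.4 and 11.5 FPKM in vector and 8.24, 7.65 and 8.58 in RNF186 cells (log2 change -0.43, limma, adjusted p = 0.00054). Every RNF186 value lay under every vector value. The organellar exchanger SLC9A7 was higher (0.20, limma, adjusted p = 0.034) and lost its call without any 1 library other than RNF186 replicate 2 (0.057 to 0.116). The lactate carriers SLC16A1 (0.04, limma, adjusted p = 0.454) and SLC16A3 (-0.12, 0.253) were not called.

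Carbonic anhydrases need zinc, and of 16 tested zinc transporters 4 rose, 1 fell and 11 were not called, with a median log2 change of 0.03. Over all tested genes a larger share, 38.8%, was called, so the count says nothing particular about zinc transport. SLC39A4, the zinc importer of enterocytes, was 36.6, 38.2 and 31.9 FPKM in vector and 21.4, 27.8 and 23.8 in RNF186 cells (log2 change -0.54, limma, adjusted p = 0.00177). The importers SLC39A8 (0.27, limma, adjusted p = 0.0052) and SLC39A6 (0.21, 0.00904) and the exporter SLC30A1 (0.19, 0.0242) were higher. The SLC30A1 call ended when any library but vector dish 1 and RNF186 dish 2 was dropped (limma, adjusted p = 0.0742 to 0.0917).

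CA1, CA2 and CA4 belong to mature colonocytes, and the other listed genes of that state included several near 0. Of 17 listed genes with values 9 were tested, 1 rose, 3 fell and 5 were not called, with a median log2 change of -0.10, a share of calls near the 38.8% of all tested genes. CEACAM7, an adhesion molecule, rose from 1.58 ± 0.223 to 6.60 ± 0.324 FPKM (SD, n = 3; log2 change 1.56, limma, adjusted p = 6.33e-07). The fatty acid binding protein FABP1 fell from 6.72 ± 1.06 to 1.63 ± 0.379 FPKM (-1.56, limma, adjusted p = 8.52e-06). The surface antigen GPA33 (-0.66, limma, adjusted p = 6.47e-05) and HHLA2 (-0.24, 0.0127) were lower, and dropping vector dish 2, vector dish 3 or RNF186 dish 1 ended the HHLA2 call (0.0515 to 0.0575). The colonocyte genes SLC26A3, AQP8, GUCA2A and GUCA2B had means of 0.117 FPKM or less in both groups, as low as those of CA1 and CA4 or near them. Other genes of the list stood far higher, with means in vector and RNF186 cells of 38.6 and 24.2 FPKM for GPA33 and 47.5 and 40.05 for HHLA2. CA2 lay between, at 4.89 and 3.93, so the list was not low as a whole.

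**Figure D4:**
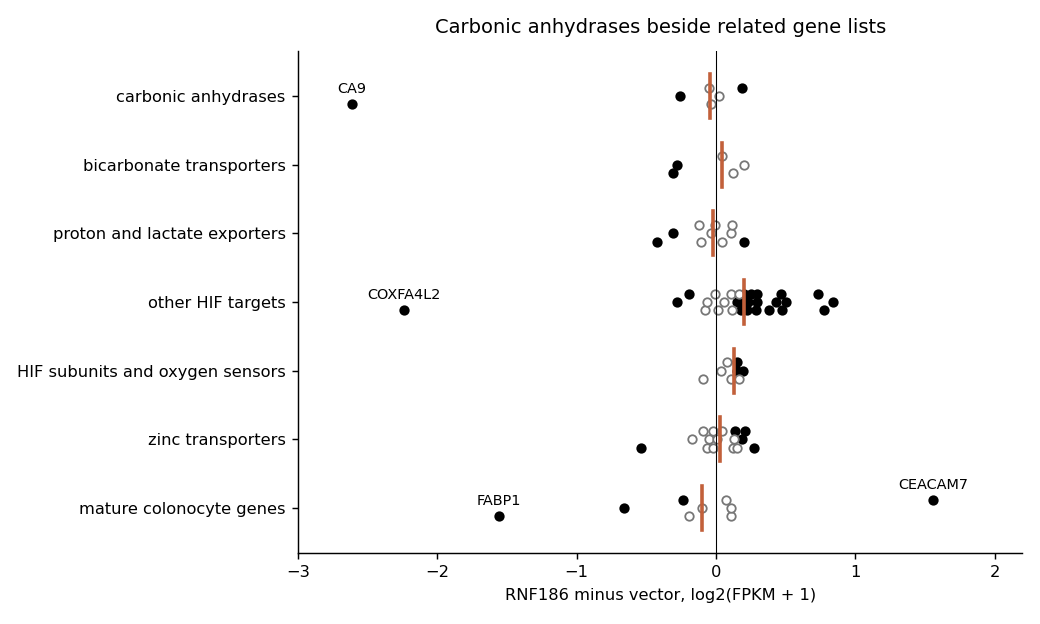
Log2 change with RNF186 of each tested gene of 7 lists (horizontal axis, difference of mean log2(FPKM + 1)), filled where called at an adjusted p under 0.05, with the list median as a vertical bar. CA9 at -2.61 and COXFA4L2 at -2.24 stand apart from the other HIF targets. The median of the 29 tested HIF targets, COXFA4L2 included, is 0.20.

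The genes most like CA9 were sought by the distance between profiles of log2(FPKM + 1), each minus its vector mean, over the 6 libraries. The nearest was the galectin LGALS1, at a distance of 0.34, with 22.9, 20.4 and 20.1 FPKM in vector and 2.32, 2.29 and 2.80 in RNF186 cells. LCN15 (0.49), a lipocalin, DHRS2 (0.51), a reductase, and the metallothionein MT2A (0.55), which binds zinc and copper, came next. Single metallothioneins are uncertain, since they share sequence. For CA2, the tested member with the next largest change, genes among the nearest were ANKRD13B (0.072), SIAE (0.074) and EEF2KMT (0.076), with log2 changes of -0.27 to -0.22. EEF2KMT lost its call when the same 3 dishes as for CA2 were dropped in turn (limma, adjusted p = 0.0815 to 0.115). The distance is set by the size of the difference between groups and by the spread of dishes, and says nothing about shared function.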

How the data were processed

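The authors deposited 1 table of FPKM values per gene and dish, to 2 decimals, per the file headers. Bowtie 0.12.2 and the mouse builds mm8 and mm9 are named in the submitters' processing notes, although the table holds human Entrez identifiers. The counting program, annotation and read depth are not stated in these sources, and no counting interval can be had. Of 19485 rows, 1 named no gene and 1921 had no value. Symbols came from RefSeq (GRCh38.p14), where 17524 of 17563 rows matched.

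The scale was log2(FPKM + 1), fitted for 11632 genes that averaged 1 FPKM or more, with limma 3.58.1 in R 4.3.3 (mean-variance trend, two-sided, no covariates), adjusted by Benjamini-Hochberg over all these genes and called under 0.05. This scale understates changes of low genes. The procedure was run on simulated data with independent noise between dishes, which says nothing about the spread between lines. Members, lists and tests were chosen with earlier results of these data known. Named were all family genes, RNF186, up to 4 called genes of each list with the smallest p (2 where none was called) and the 4 genes most like each of the 2 members that changed most. CFTR, the markers of other cell types and of epithelium, HIF1A, EPAS1, PGK1, ENO1, SLC16A1, SLC16A3, SLC26A3, AQP8, GUCA2A, GUCA2B and the neighbours of CA9 were named with their values already seen. Some genes that the rule names are not reported here. The alternatives tried were further pseudocounts, filters, scalings, variance models, array weights, a replicate block, a stricter threshold and leaving out each library.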

Additional observations from a re-analysis of the deposited data

How the results depend on the processing

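The fall of CA9 was called under all 18 alternatives and under the length and GC correction, chosen after seeing the data, with a log2 change between -2.85 and -2.51. Among the members not called, CA5B changed sign with the length and GC correction (-0.077) and with quantile normalization (-0.065), and CA12 with TPM rescaling (0.0094). With each library left out in turn, CA5B ran from -0.019 (without vector replicate 1) to 0.071, and CA13 from -0.096 to 0.00997 (without RNF186 replicate 2). Of 666 values of 43 named genes under alternatives, 577 kept their direction and side of the threshold or came from genes untested in the main fit. The latter, CA14 among them, had no call in the main fit to keep. A further 83 values lost the call and 1 gained it. The stricter threshold of 0.01 left the fit as it was, so it ended by rule each call with a limma adjusted p between 0.01 and 0.05. For the other settings the cause was not tested.

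Counts of calls that moved by over 1.5 times were as follows. With no filter on low values 1 family gene outside the members (none was tested with it) and 1 bicarbonate transporter were called, the latter higher where the 2 called with the filter were lower, and with a mean of at least 5 FPKM 1 of the 2 members still tested and 2 mature colonocyte genes, since fewer genes were tested. With array weights 4 bicarbonate transporters, 5 proton and lactate exporters, 6 HIF subunits and sensors and 8 zinc transporters were called. That setting called 6376 of all 11632 tested genes, against 4509 in the main fit, so nothing particular to these lists is read from the higher counts. With the length and GC correction 1 HIF subunit or sensor was called, where 5711 genes were called over the whole fit. At an adjusted p under 0.01, 2586 genes, 1 member, 0 bicarbonate transporters, 0 HIF subunits and sensors and 3 zinc transporters were called. Without 1 library each, counts ran from 3140 to 5659 genes, 1 to 2 members, 0 to 4 bicarbonate transporters, 2 to 5 proton and lactate exporters, 16 to 22 HIF targets, 0 to 5 HIF subunits and sensors, 3 to 8 zinc transporters and 3 to 5 mature colonocyte genes.

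Deviations of the same replicate number correlated at -0.27, -0.07 and 0.25, and those of different numbers at between -0.37 and 0.39. With 3 dishes a group, these values cannot show whether the replicate numbers pair the dishes. With a replicate block 4037 genes were called, and 1 HIF subunit or sensor and 3 zinc transporters. With 3 dishes of 1 line a group and unknown depth, values under 0.5 FPKM are too coarse to rank.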
